A study of Mus musculus with 12 samples.

Results

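The 8 genes described here encode the myosin heavy chains of striated muscle: Myh4, Myh1 and Myh2 of fast adult fibres, Myh7, Myh6 and Myh7b of slow and heart muscle, and Myh3 and Myh8 of developing fibres. They were taken by symbol, or by the mouse symbol of the Ensembl identifier where the table gave none, and all 8 were found among 30389 genes. Their transcripts were measured by RNA sequencing in muscle of 6 C57BL/6 mice, with 3 animals per group. The anomaly group had the genotype VEC-Cre;SB Transposase; onc3 and was sampled at vascular anomalies in muscle. The normal group had the genotype SB Transposase; onc3, without Cre, and gave normal muscle. Both groups thus carried the Sleeping Beauty transposase and onc3, the transposon that it moves, and differed in a Cre recombinase under the promoter of VE-cadherin, an adhesion protein of endothelial cells. The Cre thus comes from a promoter of endothelial cells and not of muscle fibres. The labels give no age and do not name the muscle sampled, so a difference in muscle and one in condition cannot be told apart. The animal was the replicate, with 2 libraries each, made from separate pieces or, for anomaly animal 2, from lesions 1 and 2.

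A myosin heavy chain carries the motor domain that pulls on actin and the rod that packs into the thick filament, and the isoform in a fibre sets much of its shortening speed. In mouse limb muscle Myh4, Myh1 and Myh2 give the fast types 2B, 2X and 2A, and Myh7 gives the slow type 1. Myh3, the embryonic chain, and Myh8, the perinatal chain, are replaced by adult chains after birth and return in fibres that regenerate. Myh6 is the alpha chain of the heart, and Myh7b is an ancient slow chain found in heart, extraocular muscle and muscle spindles.

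Values are in CPM as the authors scaled them. The library size implied by what 1 read was worth was 1.43 to 2.12 times the read total in anomaly libraries and 0.712 to 0.800 times in normal ones, so CPM are lower in anomalies, and higher in normal muscle, than by totals alone. The anomaly libraries had 254404 to 18476461 reads and the normal ones 17380211 to 32155879. Piece 1 of anomaly animal 1, the library of 254404 reads, stood apart. A single read was worth 1.85 CPM there, 3 reads, taken as the floor of detection, were worth 5.56 CPM, and 40.4% of its detected genes had exactly 1 read, against 12.1% to 13.4% in the other 11 libraries. Of the 8 genes, Myh4 with 46 reads was above that floor in this library, Myh2 was at it with 3 reads, and the other 6 had 0 to 2 reads. This library still held 18740 detected genes, against 21686 among 14801234 reads in piece 2 of the same animal. The recovered units of the smaller library may thus not be reads as sequenced, though they are called reads here. Results are also given without that library where it changes them. The genes resemble each other: between 18.9% and 26.9% of the 50-base words in the longest coding transcripts of Myh1, Myh2, Myh4, Myh6, Myh7 and Myh8 also occur in another myosin heavy chain of striated muscle, against 4.81% for Myh3 and 0% for Myh7b. The deposited column names end in ReadsPerGene.out, which points to gene counts made by the aligner STAR. No source used here describes how such reads were then assigned. The library kit kept no strand, so reads of Myh1 could not be told from those of its antisense gene Myhas over 515 exonic bases, nor reads of Myh7 from those of Mhrt over 484.

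Myh3, Myh2, Myh1, Myh4 and Myh8 lie in this order on the plus strand of chromosome 11, within 230 kb of the GRCm38 build. Only 2.53 kb separate the end of Myh2 from the start of Myh1, 13.5 kb separate Myh1 from Myh4 and 16.7 kb separate Myh4 from Myh8. Myh6 and Myh7 lie side by side on the minus strand of chromosome 14, and Myh7b lies on chromosome 2. The promoter windows of 4 neighbours are printed because these genes gave the widest contrasts described below. They reach from 250 bases before to 50 bases after the start in RefSeq annotation of GRCm38.p6, all on the plus strand, and capitals mark 2 runs of letters that they share.
Myh2, chr11:67170777-67171076: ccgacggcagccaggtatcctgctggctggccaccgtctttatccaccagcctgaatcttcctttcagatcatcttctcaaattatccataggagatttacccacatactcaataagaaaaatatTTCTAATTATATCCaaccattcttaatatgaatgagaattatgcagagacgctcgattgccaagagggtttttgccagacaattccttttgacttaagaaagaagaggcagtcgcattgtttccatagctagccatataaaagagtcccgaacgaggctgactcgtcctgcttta
Myh1, chr11:67199852-67200151: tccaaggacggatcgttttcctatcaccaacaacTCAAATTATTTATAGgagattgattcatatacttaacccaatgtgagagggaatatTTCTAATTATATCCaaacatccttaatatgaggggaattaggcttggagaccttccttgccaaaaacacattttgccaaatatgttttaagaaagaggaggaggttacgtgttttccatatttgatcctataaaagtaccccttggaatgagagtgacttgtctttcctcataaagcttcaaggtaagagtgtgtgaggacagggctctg
Myh4, chr11:67237562-67237861: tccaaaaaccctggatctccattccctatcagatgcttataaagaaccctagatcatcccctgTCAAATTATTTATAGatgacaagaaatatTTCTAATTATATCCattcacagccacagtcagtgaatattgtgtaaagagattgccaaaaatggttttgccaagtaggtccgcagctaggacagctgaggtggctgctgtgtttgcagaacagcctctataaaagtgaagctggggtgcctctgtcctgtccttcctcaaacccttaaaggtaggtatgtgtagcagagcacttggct
Myh8, chr11:67276874-67277173: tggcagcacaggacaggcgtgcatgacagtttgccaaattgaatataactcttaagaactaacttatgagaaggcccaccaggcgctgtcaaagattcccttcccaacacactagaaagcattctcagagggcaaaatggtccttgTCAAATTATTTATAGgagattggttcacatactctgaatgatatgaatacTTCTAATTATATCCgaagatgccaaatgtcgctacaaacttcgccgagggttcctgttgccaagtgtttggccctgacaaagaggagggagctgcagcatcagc
The run TTCTAATTATATCC was found in all 4 windows and in no other of 32851 promoter windows, with both strands searched. It began 125 bases before the start in Myh2, 160 in Myh1, 158 in Myh4 and 54 in Myh8. The run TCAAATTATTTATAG was found in the windows of Myh1, Myh4 and Myh8 and in none of the rest, at 216, 187 and 104 bases before the start. In each of these 3 windows it held the consensus of MEF2, a family of muscle transcription factors, which 3.19% of all windows hold. The letters TATAAA were found 32 bases before the start of Myh1 and 31 before that of Myh4, and 13.6% of all windows hold them somewhere. Read on the opposite strand, as TTTATA in the printed sequence, the same letters lie inside the run shared by 3 windows, where they overlap the MEF2 consensus. They also lie 213 bases before the start of Myh4 and 10 bases after that of Myh2. A CArG box, the serum response factor consensus, was found in the window of Myh4, 104 bases before its start, and in 1.63% of all windows. The E-box letters CANNTG, which 72.3% of windows hold, were in the windows of Myh4 and Myh8 but not in those of Myh1 and Myh2. The MEF3 letters TCAGGTT, held by 4.07% of windows, were in none of the 9 windows of the 8 genes. RefSeq and GENCODE starts differ by 50 bases for Myh1 and 217 for Myh4 and are equal for Myh2 and Myh8. A match of letters is a description and does not show that a factor binds.

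**Figure D1:**
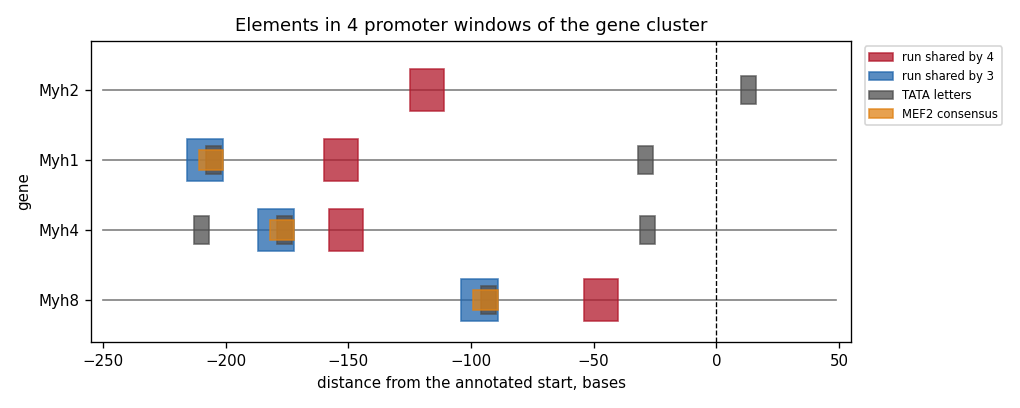
Map of the promoter windows of Myh2, Myh1, Myh4 and Myh8, with distance from the annotated start in bases on the horizontal axis and a line for each gene. The run shared by 4 windows (red) lies 54 to 160 bases before the start, and the run shared by 3 (blue) lies 104 to 216 bases before it and overlaps the MEF2 consensus.

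The first question was whether the myosin heavy chains differed between anomaly and normal muscle. Of the 8 genes, 3 fell in the anomaly (Myh4, Myh1 and Myh7b), none rose, and 5 did not pass the test, which was limma on log2(CPM + 1) averaged per animal with an adjusted p under 0.05 over 14687 genes. Over all genes tested, 63.4% were called, 31% lower and 32.4% higher, so 3 of 8 lower is close to the background. At an unadjusted p under 0.05 limma also gave 3 lower and 0 higher, and limma with voom on reads summed per animal gave 1 lower and 0 higher. The median log2 difference of the 8 genes was -1.80, against 0.09 over all genes tested. For the same 3 genes all anomaly animals were below all normal animals, as for 35.4% of all genes tested, and for none were they all above, as for 37.6%. The anomaly animals were split. In animals 1 and 2 all 8 genes were below every normal animal. At least 35.4% of all genes tested had animals 1 and 2 below, since that share had all 3 below, and the full share was not counted. In animal 3, by contrast, Myh2, Myh3, Myh6 and Myh8 were above every normal animal. The pattern of those 4 genes was noticed after their values were seen, and 1.8% of all genes tested had it.

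**Figure D2:**
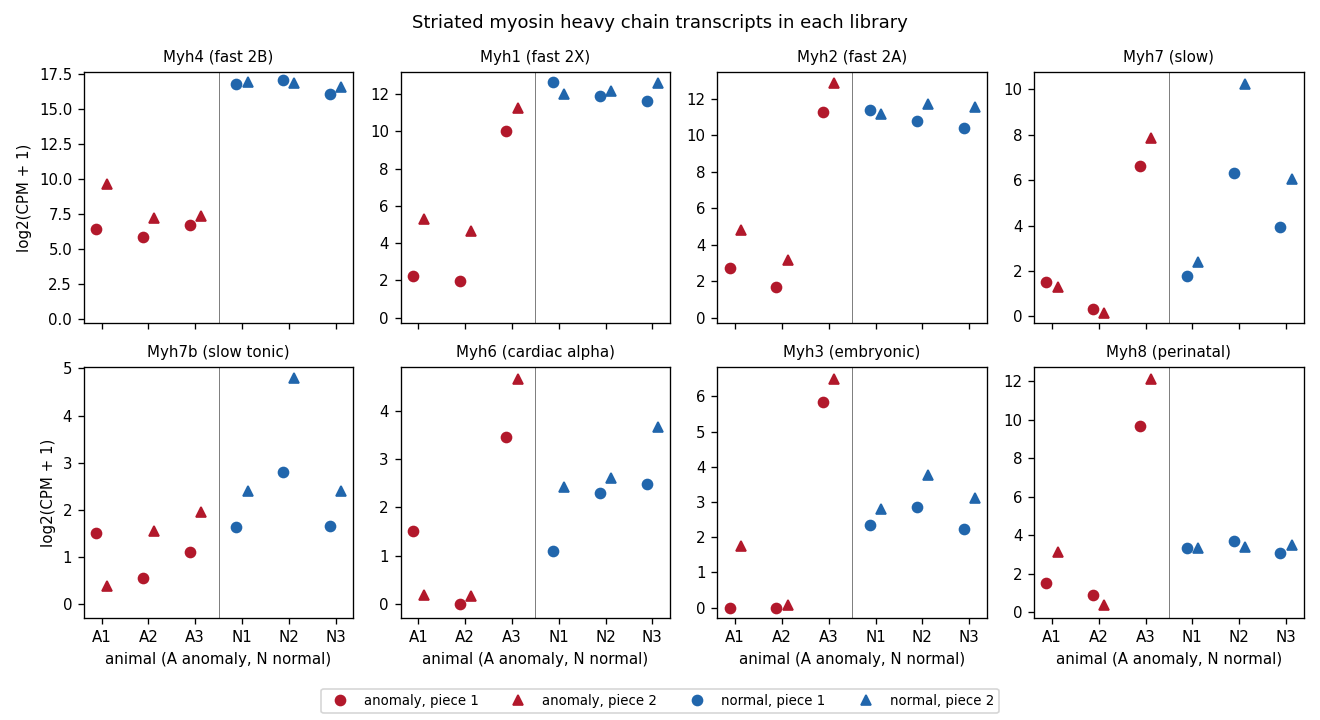
Level of each gene as log2(CPM + 1) in the 12 libraries, with anomaly animals (A, red) left of normal animals (N, blue), circles for piece 1 and triangles for piece 2. Myh4 lay far below normal muscle in every anomaly library, whereas Myh8 was at 823 and 4526 CPM in the pieces of anomaly animal 3 and at 7.55 to 12.3 CPM in normal libraries.

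Myh4, the 2B chain of the fastest glycolytic fibres, had the widest gap. Its CPM in pieces 1 and 2 were 85.2 and 794 in anomaly animal 1, 58.1 and 151 in anomaly animal 2 and 107 and 161 in anomaly animal 3. In normal muscle animal 1 had 115374 and 130867, animal 2 had 139381 and 121493 and animal 3 had 69250 and 100473. The highest anomaly library was thus far below the lowest normal one, and all 3 anomaly animals were low alike. Myh4 averaged 226 ± 186 CPM in anomalies and 112807 ± 24476 CPM in normal muscle (SD, n = 3 animals each), a 499-fold lower mean, and the fitted log2 difference was -9.53 (SE 0.93, limma adjusted p = 0.000481). It was -8.38 when scaled by library totals alone and -7.86 with median-of-ratios scaling, and passed the test under both. In normal muscle this 1 gene took most of the reads of the family. In bulk tissue, fewer fibres and less RNA per fibre cannot be told apart, and this holds for every value below.

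Myh1, the 2X chain of fast fibres between 2B and 2A, fell as well, but by different amounts. Its CPM were 3.71 and 38.6 in anomaly animal 1, 2.97 and 24.3 in anomaly animal 2 and 1027 and 2479 in anomaly animal 3. In normal muscle animal 1 had 6328 and 4039, animal 2 had 3794 and 4636 and animal 3 had 3201 and 6254. No anomaly library reached the lowest normal library, yet anomaly animal 3 had 0.372 times the normal mean while animals 1 and 2 had 0.00449 and 0.00290 times. The log2 difference was -6.24 (SE 1.90, limma adjusted p = 0.0271), from means of 596 ± 1002 CPM in anomalies and 4709 ± 484 CPM in normal muscle. The call was lost without anomaly animal 1 or 2 or any of the 3 normal animals, with adjusted p from 0.0671 to 0.0892, and was kept without anomaly animal 3, at -8.61 (adjusted p = 3.30e-05).

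Myh2, the 2A chain of fast oxidative fibres, divided the anomaly animals. It was at 5.56 and 26.8 CPM in anomaly animal 1, at 2.23 and 7.97 CPM in anomaly animal 2 and at 2479 and 7612 CPM in anomaly animal 3. The normal libraries held 2654 and 2272 CPM in animal 1, 1801 and 3318 CPM in animal 2 and 1335 and 3039 CPM in animal 3. Piece 2 of anomaly animal 3 was above all normal libraries, piece 1 lay among them, and the other 4 anomaly libraries were far below. The log2 difference of -5.08 (SE 2.41) did not pass the test (limma adjusted p = 0.107). Without anomaly animal 3 it was -8.07 and passed (adjusted p = 7.40e-05).

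Myh7, the slow chain of type 1 fibres and of the ventricle, ranged widely within both groups. It was at 1.85 and 1.44 CPM in anomaly animal 1, at 0.265 and 0.116 CPM in anomaly animal 2 and at 96.7 and 229 CPM in anomaly animal 3. Normal animal 1 had 2.48 and 4.31 CPM, normal animal 2 had 77.3 and 1198 CPM and normal animal 3 had 14.2 and 64.2 CPM. The values of the groups overlapped, and piece 2 of normal animal 2 was the highest of all 12 libraries. The log2 difference was -2.16 (SE 2.23, limma adjusted p = 0.417).

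Myh7b, the slow tonic chain, had few reads everywhere. It was at 1.85, 0.315, 0.477, 1.92, 1.15 and 2.87 CPM in the anomaly libraries, which is 1 to 76 reads, and at 2.12, 4.25, 5.95, 26.9, 2.16 and 4.31 CPM in the normal ones. The highest normal value again came from piece 2 of animal 2. Animals did not overlap between groups but libraries did. Myh7b fell by 1.44 on the log2 scale (SE 0.52, limma adjusted p = 0.0488), with means of 1.43 ± 0.505 CPM in anomalies and 7.61 ± 7.63 CPM in normal muscle. This call was just past the threshold and was lost without any 1 of the 6 animals, at an adjusted p of 0.0531 to 0.120. With median-of-ratios scaling the difference was -0.01.

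Myh6, the alpha chain of the heart, was at 1.85 and 0.135 CPM in anomaly animal 1, at 0 and 0.116 CPM in anomaly animal 2 and at 10.04 and 24.6 CPM in anomaly animal 3, against 1.14 to 11.7 CPM in normal libraries. Anomaly animals 1 and 2 had at most 3 reads in a library, while animal 3 had 296 and 651. The log2 difference was -0.76 (SE 1.03, limma adjusted p = 0.532).

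Myh3, the embryonic chain, had 0 and 53 reads in anomaly animal 1, 0 and 1 read in anomaly animal 2 and 1652 and 2372 reads in anomaly animal 3. In CPM these were 0 and 2.38, 0 and 0.0581, and 56.0 and 89.5, against 4.08, 6.00, 6.28, 12.5, 3.74 and 7.71 CPM in the normal libraries. The lowest piece of anomaly animal 3 was 4.48 times the highest normal library, and the other 4 anomaly libraries were below all normal ones. A read count of 0 in the library of 254404 reads allows up to 5.56 CPM, and one in piece 1 of anomaly animal 2 allows up to 0.159 CPM. The difference between groups was -0.49 on the log2 scale (SE 1.54, limma adjusted p = 0.789).

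Myh8, the perinatal chain, showed the same split with the widest range. It was at 1.85 and 7.78 CPM in anomaly animal 1, at 0.848 and 0.291 CPM in anomaly animal 2 and at 823 and 4526 CPM in anomaly animal 3. All 6 normal libraries lay close together at 9.30, 9.12, 12.3, 9.53, 7.55 and 10.4 CPM. Anomaly animal 3 averaged 2675 CPM, 276 times the normal mean of 9.70 ± 1.04 CPM (SD, n = 3), and its lower piece was 67.1 times the highest normal library. The difference between groups was 1.22 on the log2 scale (SE 2.53, limma adjusted p = 0.686), and without anomaly animal 3 it was -1.93 with an adjusted p of 0.0178. A single animal carried the higher levels, so they have no replicate beyond its 2 pieces.

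The second question was how far the 3 anomaly animals differed from each other. By limma's F test on the libraries, 6 of the 8 genes differed among them, whereas 35.1% of all genes tested did. The p-values of this test measure only the spread between pieces of 1 animal. The adjusted p was 1.06e-05 for Myh8, 2.29e-05 for Myh2, 4.02e-05 for Myh3, 0.000446 for Myh1, 0.00101 for Myh7 and 0.00110 for Myh6. Myh4 (adjusted p = 0.427) and Myh7b (0.725) did not pass, and Myh4 passed without piece 1 of anomaly animal 1 (0.0491). In anomaly animal 3 the log2 difference from the normal mean was 7.51 for Myh8, 3.31 for Myh3, 2.11 for Myh7, 1.64 for Myh6 and 0.92 for Myh2, but -1.09 for Myh7b, -1.51 for Myh1 and -9.70 for Myh4. In anomaly animals 1 and 2 the same differences were -8.72 and -10.18 for Myh4, -8.39 and -8.83 for Myh1 and -7.41 and -8.74 for Myh2. For Myh8 they were -1.08 and -2.78. In anomaly animal 3 the perinatal, embryonic, cardiac alpha and 2A chains were thus above every normal animal, both adult slow chains were not, and the difference of Myh4 lay between those of the other anomaly animals.

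**Figure D3:**
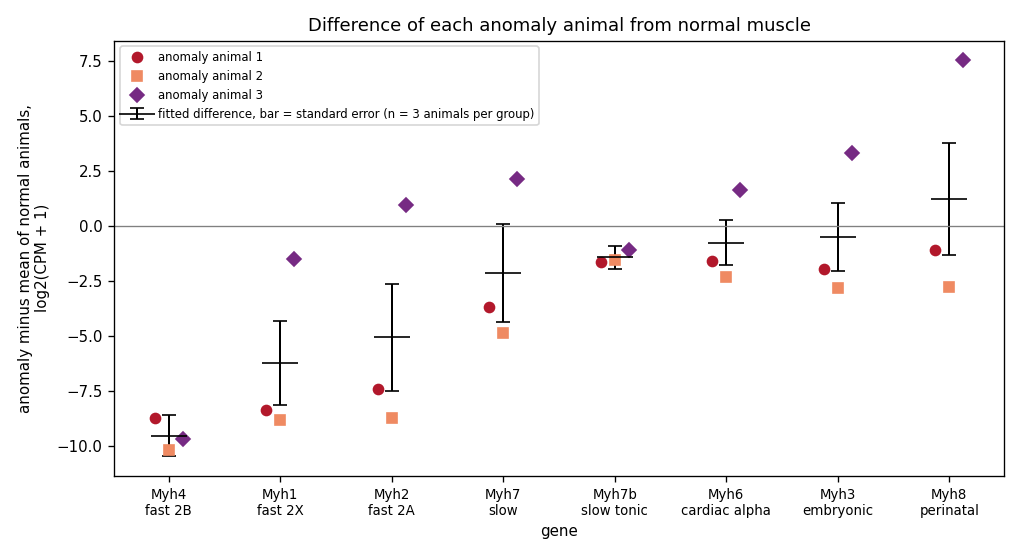
Difference of each anomaly animal from the mean of the normal animals in log2(CPM + 1), by gene, with the fitted group difference as a black dash and its standard error as a bar. The 3 anomaly animals lay together for Myh4 and Myh7b, and animal 3 (diamonds) lay apart for the others, at 7.51 for Myh8.

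The share of each chain in the reads of the 8 genes does not depend on how libraries were scaled. The 8 genes together took 0.0763%, 0.0219% and 1.45% of all reads in anomaly animals 1, 2 and 3, against 9.82%, 10.2% and 6.86% in the normal animals. Their summed reads were 55 to 400893 in anomaly libraries, against 1026283 to 3465243 in normal ones. In anomaly animals 1 and 2 Myh4 still held the largest share, as in normal muscle, and in anomaly animal 3 Myh2 did. Myh4 made up 87.4%, 85.4% and 1.69% of the family in anomaly animals 1, 2 and 3, against 94.1%, 94.5% and 92.6% in normal animals. Myh2 made up 4.27%, 3.86% and 52.1%, against 1.90%, 1.89% and 2.29% in normal animals. Myh1 made up 4.03%, 8.84% and 19.4%, against 4.02%, 3.08% and 5.01% in normal animals. Myh8 made up 1.36%, 0.732% and 23.9%, against 0.00706%, 0.00787% and 0.00986% in normal animals.

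For every gene but Myh1 and Myh7 the shares of the anomaly animals lay wholly above those of the normal animals, or below for Myh4. For Myh3 in anomaly animal 2 this rests on 1 read, for Myh6 on 4 reads in anomaly animal 1 and 2 in anomaly animal 2, and for Myh7b in anomaly animal 1 on 8 reads. By a two-sided exact permutation test p was 0.1 for these 6 genes, the smallest that 3 against 3 animals allow, and 0.2 for Myh1 and Myh7. The mean share of Myh4 differed by -35.6 percentage points between anomaly and normal animals, and by -7.35 without anomaly animal 3. That of Myh8 differed by 8.66 points, and by 1.04 without that animal. That of Myh6 differed by 0.375 points, and by 0.0745 without piece 1 of anomaly animal 1. In pieces 1 and 2 of anomaly animal 3, Myh4 made up 2.32% (95% Wilson interval 2.24% to 2.40%) and 1.07% (1.04% to 1.10%). Myh3 and Myh8 together made up 19.1% (18.9% to 19.3%) and 30.5% (30.4% to 30.7%) of the family there, against 0.0108% to 0.0169% in normal libraries. In piece 1 of anomaly animal 1 the share of Myh4 was 83.6% of only 55 reads, with an interval of 71.7% to 91.1%. These intervals cover counting error only.

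**Figure D4:**
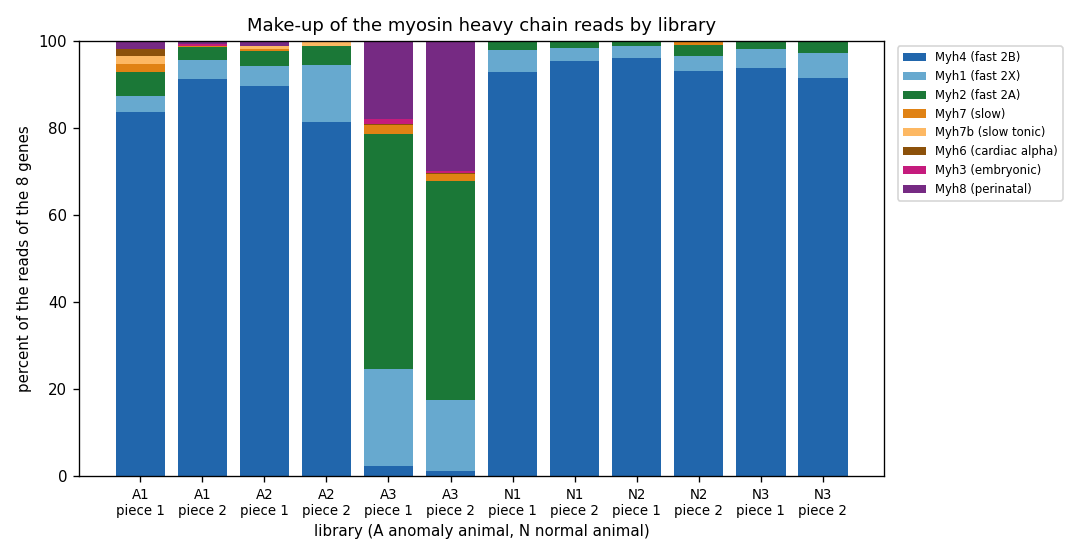
Make-up of the reads of the 8 genes in each library, in percent, with anomaly libraries (A) left of normal libraries (N) and 1 colour per gene. Myh4 fills most of every bar but those of anomaly animal 3, where Myh2 makes up 53.9% and 50.3% and Myh8 17.9% and 29.9%.

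Ratios between neighbouring genes, per kb of the longest coding transcript, showed the same shift. Myh4 over Myh1 was 23.2 and 20.8 in the pieces of anomaly animal 1, 19.8 and 6.26 in those of anomaly animal 2 and 0.105 and 0.0658 in those of anomaly animal 3, against 16.2 to 37.1 in normal libraries. Myh2 over Myh1 was 0.696 in piece 2 of anomaly animal 1, 0.750 and 0.328 in anomaly animal 2 and 2.41 and 3.07 in anomaly animal 3, against 0.417 to 0.715 in normal libraries. Piece 1 of anomaly animal 1 had 3 reads of Myh2 and 2 of Myh1 and is left out for Myh2 over Myh1. Its value of 23.2 for Myh4 over Myh1 rests on the same 2 reads of Myh1, below the floor of 3.

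Ordered by CPM per kb, the levels in normal muscle were 18751 ± 4068 for Myh4, 774 ± 79.7 for Myh1, 395 ± 31.8 for Myh2 and 36.4 ± 57.2 for Myh7 (SD, n = 3). Myh8 at 1.58 ± 0.170, Myh7b at 1.23 ± 1.24, Myh3 at 1.11 ± 0.389 and Myh6 at 0.841 ± 0.452 followed. Myh4, Myh1 and Myh2 did not overlap with each other over the 3 normal animals, while neighbours among the last 4 overlapped, and Myh7 at 0.545 in normal animal 1 reached down among them. In anomaly animal 3 the order was Myh2 at 829, Myh8 at 435, Myh1 at 288, Myh7 at 26.1, Myh4 at 22.3, Myh3 at 12.1, Myh6 at 2.83 and Myh7b at 0.326. Myh4 remained first in anomaly animals 1 and 2, at 73.1 and 17.3, followed by Myh1 at 3.48 and 2.24. The pieces of anomaly animal 3 differed in order. Myh8 and Myh1 were at 134 and 169 in piece 1 and at 736 and 408 in piece 2. Myh7 and Myh4 were at 15.5 and 17.7, then at 36.8 and 26.8. Order also depends on the length used, here the longest coding transcript. By the length of all merged exons, Myh1 was above Myh8 in anomaly animal 3 (23.3% and 15.7% of the family). Myh4 was then above Myh7 (2.13% and 1.60%).

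A pair of non-coding genes in the chromosome 11 cluster was looked at after their values were seen. Myhas, transcribed from the strand opposite to Myh1 and overlapping its exons, averaged 0.565 ± 0.819 CPM in anomalies and 52.6 ± 5.40 CPM in normal muscle. It fell by 5.22 on the log2 scale (SE 0.36, limma adjusted p = 0.000194). The gene 2310065F04Rik averaged 2.23 ± 2.65 CPM in anomalies and 161 ± 73.3 CPM in normal muscle and fell by 5.95 (SE 0.65, adjusted p = 0.000687). Both stayed far below normal muscle in anomaly animal 3, unlike Myh2 and Myh8. Myhas was at 0.984 and 2.04 CPM there, against 0 to 0.233 CPM in the other anomaly libraries. 2310065F04Rik was at 2.82 and 7.55 CPM there, against 0 to 1.85 CPM. By limma's F test both differed among the anomaly animals (adjusted p = 0.00582 and 0.00102). Myh4 did not (0.427), though it passed when piece 1 of anomaly animal 1 was left out.

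Genes of fast fibres fell together with Myh4. All 12 of the fast fibre list fell, with a median log2 difference of -7.36. As background for the gene lists, 31% of all genes tested were called lower and 32.4% higher. Actn3, the fast alpha-actinin of the Z-disc, averaged 157 ± 190 CPM in anomalies and 19383 ± 2245 CPM in normal muscle, and fell by 8.22 (SE 1.06, limma adjusted p = 0.00119). Pvalb, the calcium buffer parvalbumin, fell by 8.07 (SE 1.24, adjusted p = 0.00215). Mybpc2, the fast myosin-binding protein C, had a log2 difference of -8.16 (SE 0.92, adjusted p = 0.000739) and Eno3, the muscle enolase, of -7.54 (SE 1.19, adjusted p = 0.00237). In anomaly animal 3 the median of the list was -4.01, against -8.58 and -9.66 in anomaly animals 1 and 2. Genes of muscle fibre content moved with these results. Of 8, which include Tnnt3 of the fast list, 7 fell, with a median of -7.05, and 3 fell without anomaly animal 1 or 2. Their summed level was 759, 262 and 24366 CPM in anomaly animals 1, 2 and 3, against 172979 to 180301 CPM in normal animals. All 8 endothelial markers rose, with a median of 3.60 and a summed level of 3100 to 5488 CPM in anomaly animals against 291 to 431 CPM in normal animals, among them Emcn, endomucin, which had the smallest p of the list and a log2 difference of 4.03 (SE 0.17, adjusted p = 0.000105). The part of tissue make-up in the myosin results was not tested.

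Genes of slow fibres did not move as 1 group. Of 10, only Tpm3, the slow tropomyosin that other cells also use, rose (2.39, SE 0.68, limma adjusted p = 0.0213), and only Myl3, the slow and ventricular essential light chain, fell (-4.04, SE 1.45, adjusted p = 0.0480). The fall of Myl3 was not called by library totals or median-of-ratios scaling, nor when animal 1 or 2 of either group was left out. No gene of the list was called higher when anomaly animal 2, normal animal 1 or normal animal 3 was left out. The other 8 did not pass, among them Myl2, the slow regulatory light chain (-3.06, adjusted p = 0.0766), and Myoz2, a Z-disc calsarcin (-3.14, adjusted p = 0.171). As with Myh7, the anomaly animals differed: the median of the list was -3.10 in anomaly animal 1, -2.44 in animal 2 and 1.51 in animal 3. By the F test 8 of the 10 genes differed among these animals, against 35.1% of all genes tested. Piece 2 of normal animal 2, where Myh7 was at 1198 CPM, also held 356 CPM of Tnnt1, the slow troponin T, against 2.07 to 25.8 CPM in the other normal libraries. It held 319 CPM of Myl2, against 13.2 to 33.7 CPM there.

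**Figure D5:**
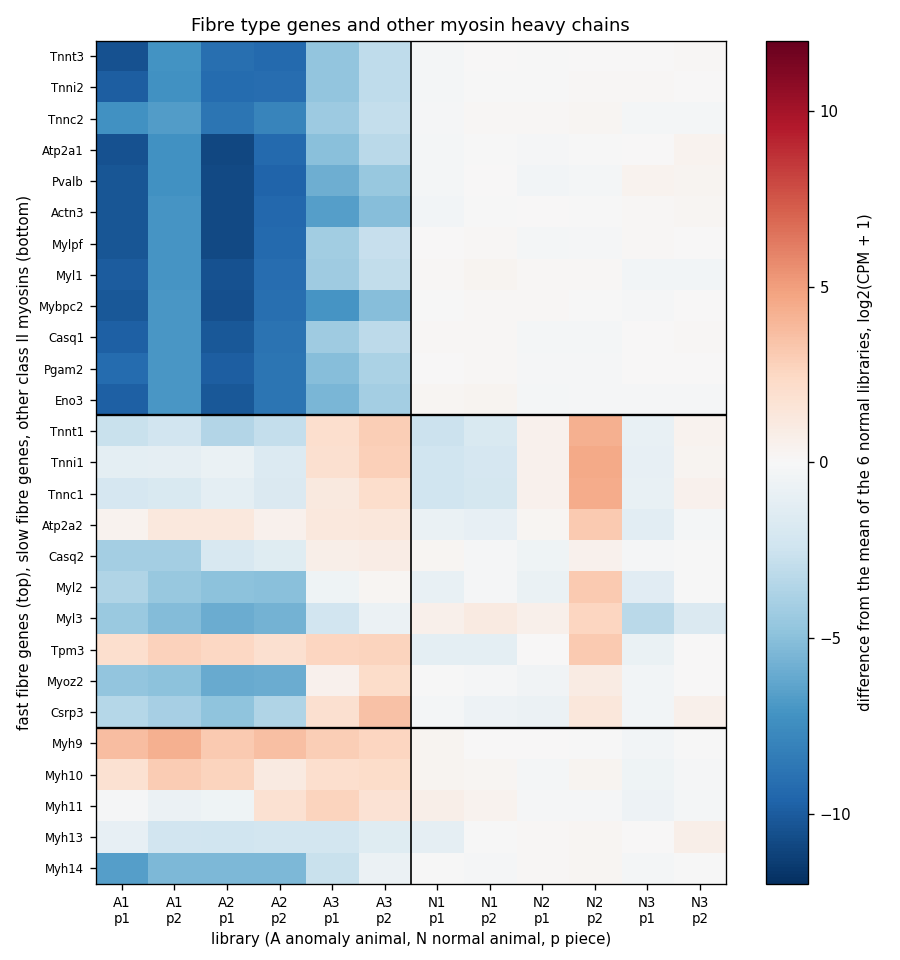
Heat map of genes of fast fibres (top), slow fibres (middle) and other class II myosins (bottom) in the 12 libraries, anomaly (A) left of normal (N), as the difference from the mean of the normal libraries in log2(CPM + 1), with blue lower and red higher. Fast genes are lower in all anomaly libraries, with a median of -4.01 in anomaly animal 3 against -8.58 and -9.66 in animals 1 and 2, and slow genes such as Tnnt1 are high in anomaly animal 3 and in piece 2 of normal animal 2.

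Partners of the chain in the thick filament and M-band followed the fast chains in most cases, with 7 of 10 lower, 3 not called and a median of -6.67. Of these, Mybpc2 is also in the fast fibre list and Ttn also in that of fibre content. Myom2, an M-band protein of fast fibres, averaged 15.5 ± 12.2 CPM in anomalies and 3387 ± 245 CPM in normal muscle and fell by 8.33 (SE 0.65, adjusted p = 0.000261). Mybph, a relative of myosin-binding protein C, had a log2 difference of -7.70 (SE 0.55, adjusted p = 0.000206) and Mylk2, the kinase of the regulatory light chain, of -7.05 (SE 1.25, adjusted p = 0.00358). Mybpc1, the slow form of myosin-binding protein C, did not pass (-5.43, SE 2.07, adjusted p = 0.0578). Of 10 genes of myosin folding, assembly and turnover, 7 fell and 2 rose. Smyd1, a methyltransferase that acts in sarcomere assembly, fell by 6.65 (SE 1.32, adjusted p = 0.00551), and the ubiquitin ligases Trim63 and Fbxo32 of muscle wasting fell too (-5.88, SE 1.07, adjusted p = 0.00401 and -4.08, SE 0.65, adjusted p = 0.00240). Trim55, their sarcomeric relative, fell by 5.34 (SE 0.93, adjusted p = 0.00339). The 2 that rose, neither of them called without normal animal 2 or 3, are forms found in all cells: Unc45a, a myosin chaperone (0.63, SE 0.16, adjusted p = 0.0152), and Hsp90aa1 (1.37, SE 0.41, adjusted p = 0.0254).

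Of 16 transcription factors that act on fibre type myosin genes, 13 fell, 1 rose and 2 did not pass, with a median of -2.59. By contrast 7 were called lower and 2 higher when scaled by library totals, and 2 lower and 1 higher with median-of-ratios scaling. Mafa, a transcription factor reported to drive Myh4 in mouse, averaged 1.43 ± 1.27 CPM in anomalies and 73.2 ± 5.38 CPM in normal muscle and fell by 5.11 (SE 0.38, limma adjusted p = 0.000242). Maf, a related factor, fell by 3.41 (SE 0.35, adjusted p = 0.000547). Maf and Mafa stayed low in anomaly animal 3, at -4.16 and -4.30 from the normal mean. Sox6, a repressor of slow genes in fast fibres, fell by 5.47 (SE 0.77, adjusted p = 0.00156). Six4, a homeobox factor of fast fibres, fell by 2.30 (SE 0.30, adjusted p = 0.00125).

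Of the 14 genes of regenerating and developing muscle, 12 were tested, 7 fell and 5 did not pass, with a median of -1.54. Over all genes tested, 31% were called lower and 63.4% in either direction. The number lower was 4 when scaled by library totals, 3 with median-of-ratios scaling and 4 without normal animal 1 or 2. Mstn, encoding myostatin, which limits muscle growth, averaged 1.04 ± 0.658 CPM in anomalies and 91.9 ± 27.5 CPM in normal muscle and fell by 5.57 (SE 0.33, adjusted p = 0.000143). Actc1, the cardiac actin used by developing fibres, fell by 6.16 (SE 0.90, adjusted p = 0.00180). The myogenic factor Myod1 (-4.06, SE 0.76, adjusted p = 0.00448) and Cdh15, M-cadherin of satellite cells (-3.95, SE 0.73, adjusted p = 0.00419), fell as well. In anomaly animal 3, where Myh3 and Myh8 were high, some genes of this list were high and others low. Mymk, the fusion protein myomaker, was at 3.46 and 3.09 CPM there and at 0 to 1.85 CPM in the other anomaly libraries, against 0 to 0.144 CPM in normal libraries. Chrng, the fetal subunit of the acetylcholine receptor, was at 2.14 and 2.07 CPM there, against 0 to 0.0837 CPM in normal libraries, and was below the filter. Myog, myogenin, was at 7.56 and 7.96 CPM there, against 6.20 to 28.2 CPM in normal libraries, and Actc1 was at 4.07 and 8.53 CPM, against 86.6 to 826 CPM. Mymk, Chrng and Myog are named after their values were seen.

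Of 6 myosin heavy chains of other muscle and non-muscle cells, 2 rose, 2 fell, 1 did not pass and 1 was not tested. With median-of-ratios scaling 1 was called lower. Among all genes tested 32.4% were called higher and 31% lower, which is the background for each list in this paragraph. Myh9, the non-muscle chain 2A, rose by 3.38 on the log2 scale (SE 0.35, limma adjusted p = 0.000597), averaging 1059 ± 443 CPM in anomalies and 94.3 ± 13.0 CPM in normal muscle. Myh10, the non-muscle chain 2B, rose by 2.16 (SE 0.23, adjusted p = 0.000639). Myh14, a non-muscle chain that skeletal muscle also holds, fell by 4.36 (SE 1.08, adjusted p = 0.0130), and Myh13, the extraocular chain of the chromosome 11 cluster, fell by 1.92 (SE 0.33, adjusted p = 0.00330) at a normal level of 4.90 ± 1.78 CPM. Myh11, the smooth muscle chain, did not pass (0.81, SE 0.66, adjusted p = 0.308), and Myh15 was below the filter. Of 8 smooth muscle genes, 5 rose, 1 fell and 2 did not pass. Among those that rose were Actg2 (3.54, SE 0.89, adjusted p = 0.0136), Acta2 (2.89, SE 0.56, adjusted p = 0.00498), Tagln (2.19, SE 0.46, adjusted p = 0.00697) and Smtn (0.84, SE 0.22, adjusted p = 0.0158), and 3 rose without normal animal 1 or 3. The gene that fell was Des, desmin, which striated muscle also holds (-5.15, SE 1.44, adjusted p = 0.0204), and its call was lost without anomaly animal 2 or any 1 of the normal animals. Of 9 cardiomyocyte genes in the table, Myl7, Nppa, Nppb and Ryr2 were below the filter, at 0 to 1.85 CPM. Of the 5 tested, Tnni3 rose (0.91, SE 0.21, adjusted p = 0.00992) to 1.41 ± 0.252 CPM in anomalies against 0.253 ± 0.215 CPM in normal muscle, Hcn4 fell (-1.95, SE 0.38, adjusted p = 0.00545), and Tnnt2 (0.63), Tbx5 (0.37) and Myl4 (-0.28) did not pass. With median-of-ratios scaling no gene of this list was called. Myl7 and Nppa, which mark the atrium, were thus at or near 0 in every library, including those where Myh6 and Myh7 were high.

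Genes with the pattern most like each chain were ranked by Pearson's r of log2(CPM + 1) over 12 libraries, which share animals and groups, so r is a description. Myh1 was closest to Xirp2 (r = 0.997), Nrap (0.994) and Actn2 (0.994), genes of the Z-disc and of myofibril attachment. Myh2 was closest to Mb, myoglobin of oxidative fibres (0.996), Hspb7 (0.989) and Mybpc1 (0.989). Myh7 was closest to the slow troponins Tnnt1 (0.985) and Tnnc1 (0.937) and to Arpp21 (0.915). Myh8 was closest to Sln, sarcolipin, the inhibitor of the calcium pump (0.954), Tmem178b (0.950) and Ift74 (0.944), and Myh3 to Letm1 (0.960), Mgea5 (0.955) and Lrrn1 (0.938). Myh4 was closest to Dagla (0.994), Gpatch2l (0.993) and Capza2 (0.992), Myh6 to Adamts20 (0.931), Csrp3 (0.919) and Lrrn1 (0.912), and Myh7b to Tmem147os (0.921), Edn3 (0.881) and Zfp750 (0.875). Among the chains themselves r was 0.971 for Myh1 with Myh2 and 0.931 for Myh3 with Myh8, but -0.17 for Myh4 with Myh8.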

How the data were processed

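Polyadenylated RNA was sequenced with an unstranded kit, per the labels' protocols, and STAR and limma were used with mm10 (GRCm38), per the submitters' processing notes, with no versions stated. The authors deposited log2 values of CPM with a common floor of -6.707, which was removed. In every library 100% of values were then whole multiples of 1 step within 0.01, taken as reads. Depth limits precision where a read is worth most.

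Per animal, log2(CPM + 1) of the 2 libraries was averaged. Genes whose mean reached 1 CPM in either group entered limma 3.58.1 (R 4.3.3, trend on), Benjamini-Hochberg adjusted at 0.05, after a test on simulated data. Shares used exact permutation tests. Nothing states that animals are the only source of spread, so p-values measure the spread between these animals, part of which may be technical. The 8 genes and the gene lists were chosen with earlier results of these data known. Named were the 8 genes, up to 4 genes of each list with the smallest p (all, where 5 or fewer were measured) and the 3 genes most alike each member, without predicted, immunoglobulin, haemoglobin and mitochondrially encoded genes. The values of 1 listed gene are not reported here. Symbols missing from 15592 rows were filled from Ensembl identifiers, of which 30294 matched. All 8 genes matched RefSeq promoters, in 9 windows. Other scalings, filters, pseudocounts, pieces, tests and left-out animals were tried.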

Additional observations from a re-analysis of the deposited data

Results flagged for a closer look

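Of 18 groups of 6 libraries checked (the 8 genes and their sum, in each tissue), 1 held a library far from the others. Myh7b in normal libraries was highest in piece 2 of animal 2. The gap to the next library was 0.634 of the whole range in log2(CPM + 1), above the 95% critical value of Dixon's test. By chance about 1 such group in 20 arises. That library had 26.9 CPM of Myh7b, against 2.12 to 5.95 CPM in the other 5 normal libraries, and it was also the highest for Myh7 and for slow fibre genes, with 246 CPM of Tnni1 and 240 CPM of Tnnc1.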

How the results depend on the processing

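The fall of Myh4 was called under all 20 alternatives, from -10.31 to -7.86 on the log2 scale. The number of the 8 genes called lower was 3 and became 1 with no filter beyond a read, with voom on reads summed per animal and at an adjusted p under 0.01. It ranged from 1 to 6 when 1 animal was left out, with 6 without anomaly animal 3 and 1 without any other. None was called higher under any alternative. Myh1 lost its call in 8 of 20 alternatives and Myh7b in 16, down to -0.01 with median-of-ratios scaling, while Myh2 gained one in 4. With median-of-ratios scaling the SE of the 8 genes was 1.05 to 1.12, against 0.52 to 2.53 as reported. Calls under that scaling thus depend on the changed SE as well as on the difference. Myh2 was called there at a smaller difference, -3.46 (SE 1.05, limma adjusted p = 0.00910).

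Directions turned for genes that did not pass. Myh3 was 0.14 when scaled by library totals, 0.22 with a pseudocount of 5 CPM, and -2.40 to 0.67 when 1 animal was left out, with 0.25 and 0.67 without anomaly animals 1 and 2. Myh6 was 0.52 with median-of-ratios scaling and -1.97 to 0.029 when 1 animal was left out. Myh8 was -1.93 to 3.21 there, the lowest without anomaly animal 3. The cause was not tested. The median of all genes was 0.09 as reported, 0.97 by totals, 1.33 by median-of-ratios and -0.33 by recomputed trimmed means.

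Piece numbers did not pair the samples, with correlations of -0.11 to 0.15 over 9 pairs of animals. With the animal as a random term and the piece number as a replicate block, 4 genes were lower, Myh2 included (adjusted p = 0.0218). Of the genes in the lists 74 were called, and 53 to 84 under alternatives. As reported, 63.4% of all genes tested were called in either direction, so this count by itself says little about the lists. Shares kept their direction. Below 3 reads, which is 5.56 CPM in the smallest library, no difference is detectable.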
